A study of Mus musculus with 12 samples.

Results

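The 53 genes described here act at the G2/M transition and through mitosis: cyclins and the regulators of CDK1, mitotic kinases, the spindle checkpoint, the anaphase-promoting complex (APC/C) and its substrates, the chromosomal passenger complex, spindle proteins and motors, kinetochore proteins, chromosome structure proteins and cytokinesis factors. They were taken by symbol from a list of known G2/M and mitosis genes, by a rule that uses no measured value. Earlier results of these data were known when the list was chosen. The count table of 48795 genes held all 53. All 53 passed the filter on low counts, which kept 14676 genes.

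RNA-Seq was performed on long-term hematopoietic stem cells (LT-HSCs) sorted from mouse BM by the level of c-KIT, the stem cell factor receptor, on their surface. Chronic myelogenous leukemia (CML) was modelled in Scl-tTA-BCR-ABL mice, in which an Scl (Tal1) enhancer drives the tetracycline transactivator in stem and progenitor cells and removal of doxycycline switches on the BCR-ABL1 fusion kinase. The 4 groups were normal c-KIThi, normal c-KITlo, CML c-KIThi and CML c-KITlo LT-HSCs, with 3 libraries each. Donor BM was transplanted into irradiated wild-type recipients per the study's methods, and LT-HSCs were gated as cells that lacked lineage markers, Flt3 and CD48 and carried Sca-1, c-KIT and CD150, with the c-KIThi and c-KITlo gates placed on control cells and then applied to CML cells. The methods describe the controls as mice of the same kind kept on doxycycline, whereas the sample labels call them normal B6, so whether the controls carried both transgenes cannot be told from these sources. The labels give neither age nor sex, and the study's methods describe young adult mice of both sexes without dividing them by group. The labels mention 4 biological replicates per group, and 3 libraries per group were analysed here, so p-values measure the spread between these libraries, which may in part be technical.

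A cell enters mitosis when CDK1 bound to cyclin B becomes active, a step opened by CDC25 phosphatases and by Polo and Aurora kinases. The spindle checkpoint holds the APC/C in check until every chromosome is attached to microtubules, after which CDC20 lets the APC/C mark securin and cyclin B for destruction and the sister chromatids part. Most of these genes are transcribed in waves late in the cell cycle, and long-term stem cells of adult BM are known for spending most of their time out of cycle. Many of their promoters carry a cell cycle homology region (CHR), which the DREAM repressor and the MMB-FOXM1 activator contact, spaced from CCAAT boxes bound by NF-Y.

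Promoter sequences were taken from RefSeq (GRCm38.p6) for 44 of the 53 genes, in 47 windows reaching from 250 bases before to 50 bases after the annotated start. A CHR (TTTGAA or its reverse complement TTCAAA) occurred in 35 of the 47 windows (74.5%) beside 17.9% of all 32851 windows of the same length. A CCAAT box (CCAAT or ATTGG, so that both strands are covered; it can share at most 1 letter with a CHR) occurred in 37 windows (78.7%) beside 37.4% of all windows. Both motifs were present in 31 windows (66.0%) beside 6.95%. These are matches of letters and no measure of binding. The 150 bases upstream of the start are printed for 6 genes on which the expression results turn, with each match in capitals: Cdkn3, Cdk1 and Cks1b, which were lower in CML c-KITlo cells, Top2a, a long gene whose change did not pass the test, Ncapd2, whose libraries lay higher in CML c-KITlo cells, and Pttg1, which was lower in the same cells and holds neither motif in these bases. The first 3 are not typical of the genes that fell: of the 10 genes called in CML c-KITlo cells 8 had a window, of which 4 held a CHR and 5 a CCAAT box, and of the 6 called in normal c-KITlo cells 5 had a window, of which 2 held a CHR and 3 a CCAAT box. Mad2l1 and Nusap1, like Pttg1, held neither motif, and Cks2 held CCAAT boxes without a CHR.
Cdkn3 (chr14:46760391-46760540, plus strand): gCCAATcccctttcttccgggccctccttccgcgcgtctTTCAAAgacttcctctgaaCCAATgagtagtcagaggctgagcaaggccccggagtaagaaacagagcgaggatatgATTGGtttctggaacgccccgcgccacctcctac
Cdk1 (chr10:69352913-69353062, minus strand): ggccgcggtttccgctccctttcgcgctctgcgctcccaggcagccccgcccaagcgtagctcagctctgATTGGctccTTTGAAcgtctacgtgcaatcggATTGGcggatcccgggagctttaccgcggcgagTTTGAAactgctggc
Cks1b (chr3:89418292-89418441, minus strand): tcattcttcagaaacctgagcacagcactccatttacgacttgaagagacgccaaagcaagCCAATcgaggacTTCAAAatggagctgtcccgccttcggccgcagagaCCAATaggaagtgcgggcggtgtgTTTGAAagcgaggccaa
Top2a (chr11:99024190-99024339, minus strand): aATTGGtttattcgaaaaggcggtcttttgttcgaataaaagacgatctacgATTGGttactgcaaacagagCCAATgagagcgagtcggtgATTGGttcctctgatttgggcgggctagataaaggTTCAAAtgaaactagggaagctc
Ncapd2 (chr6:125191587-125191736, minus strand): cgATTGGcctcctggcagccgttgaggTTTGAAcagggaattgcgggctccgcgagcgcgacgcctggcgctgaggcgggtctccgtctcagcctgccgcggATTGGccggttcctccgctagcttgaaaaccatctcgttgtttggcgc
Pttg1 (chr11:43425982-43426131, minus strand): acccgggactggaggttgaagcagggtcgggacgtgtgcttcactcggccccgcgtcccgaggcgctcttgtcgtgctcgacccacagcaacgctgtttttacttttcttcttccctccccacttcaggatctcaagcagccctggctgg

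Gene counts per library were 7753878 to 9843191 in normal c-KIThi, 14487608 to 31020852 in normal c-KITlo, 9730576 to 13213021 in CML c-KIThi and 17653931 to 20749935 in CML c-KITlo cells. Levels are given as CPM, counts scaled to a common library size after TMM normalization, which are not per length, so levels of different genes are not compared. Libraries correlated with their own group at a median r of 0.938 to 0.949 in CML c-KITlo but 0.711 to 0.752 in normal c-KITlo cells. Normal c-KITlo replicate 1 stood apart: it had the most counts, yet 18 of the 53 genes (34.0%) were at 0, beside 25.1% of all tested genes. Under 10 counts were 26 of the 53, beside 36.3% of all tested genes. A count of 0 there allows up to 0.0995 CPM. Elsewhere at most 1 of the 53 was at 0. Kit mRNA did not follow the sort on surface c-KIT: it was at 132, 143 and 129 CPM in normal c-KIThi and 380.0, 675 and 33.6 CPM in normal c-KITlo libraries, and at 57.6, 104 and 218 CPM in CML c-KIThi and 470.4, 494 and 565 CPM in CML c-KITlo libraries (adjusted p = 0.254 and 0.115 by edgeR).

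All 14 LT-HSC markers were detected in every group, and their summed level was 1367 to 1496 CPM in normal c-KIThi, 2900.5 to 5077 CPM in normal c-KITlo, 1366 to 1921 CPM in CML c-KIThi and 3124 to 3736 CPM in CML c-KITlo libraries. The 11 erythroid markers summed to 3709 to 6373 CPM in normal c-KIThi and 1727 to 5825 CPM in normal c-KITlo libraries, and to 3508 to 5519 CPM in CML c-KIThi and 1429 to 1505 CPM in CML c-KITlo libraries. The 9 B cell markers summed to 81.7 to 97.4 CPM in normal c-KIThi and 303 to 383 CPM in normal c-KITlo libraries, and to 135 to 198 CPM in CML c-KIThi and 1148 to 5501 CPM in CML c-KITlo libraries, of which Ighm made up a mean of 3366 CPM, while Pax5 and Ms4a1 were at 0. Neutrophil markers (8) summed to 3584 CPM in normal c-KITlo replicate 3, the normal c-KITlo library with the highest summed level of the 53 genes. They summed to 2332 CPM in CML c-KIThi replicate 3, where Top2a, Nusap1 and Smc4 were far above the rest of their group. In the other 10 libraries they reached at most 504 CPM. The CML c-KIThi library with the highest summed level of the 53 genes, replicate 1, had the lowest neutrophil sum of its group (10.6 CPM). Granulocyte and monocyte progenitor markers (9) summed to 65.1 to 682 CPM in normal c-KIThi and 85.7 to 2734 CPM in normal c-KITlo libraries. In CML c-KIThi and c-KITlo libraries these were 421 to 1122 CPM and 243 to 1853 CPM. Multipotent progenitor markers (5) summed to 146 to 170.2 CPM in normal c-KIThi and 222 to 304 CPM in normal c-KITlo libraries, and to 435 to 560.4 CPM and 473 to 621 CPM in the CML groups. T and NK cell markers (7) summed to 154 to 206 CPM in normal c-KIThi, 45.6 to 401 CPM in normal c-KITlo, 309.6 to 1095 CPM in CML c-KIThi and 185 to 235 CPM in CML c-KITlo libraries. The part of other cell types in the results below was not tested.

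In normal and in CML BM the summed level of these genes was lower in c-KITlo than in c-KIThi LT-HSCs, a sum in which abundant transcripts weigh most. Gene by gene, 48 of the 53 had a log2 fold change below 0 in normal cells and 37 in CML cells, where 16 were above 0. Summed over all 53, they reached 9667, 6364 and 7534 CPM in the 3 normal c-KIThi libraries but 1830.3, 2729 and 5134 CPM in normal c-KITlo. The corresponding sums were 10535, 8561 and 10126.5 CPM in CML c-KIThi and 4623, 4113 and 3225 CPM in CML c-KITlo libraries. Within each disease state the 2 sets of 3 libraries did not overlap. In these bulk samples, fewer cells in G2 or mitosis and less RNA per cell cannot be told apart.

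**Figure D1:**
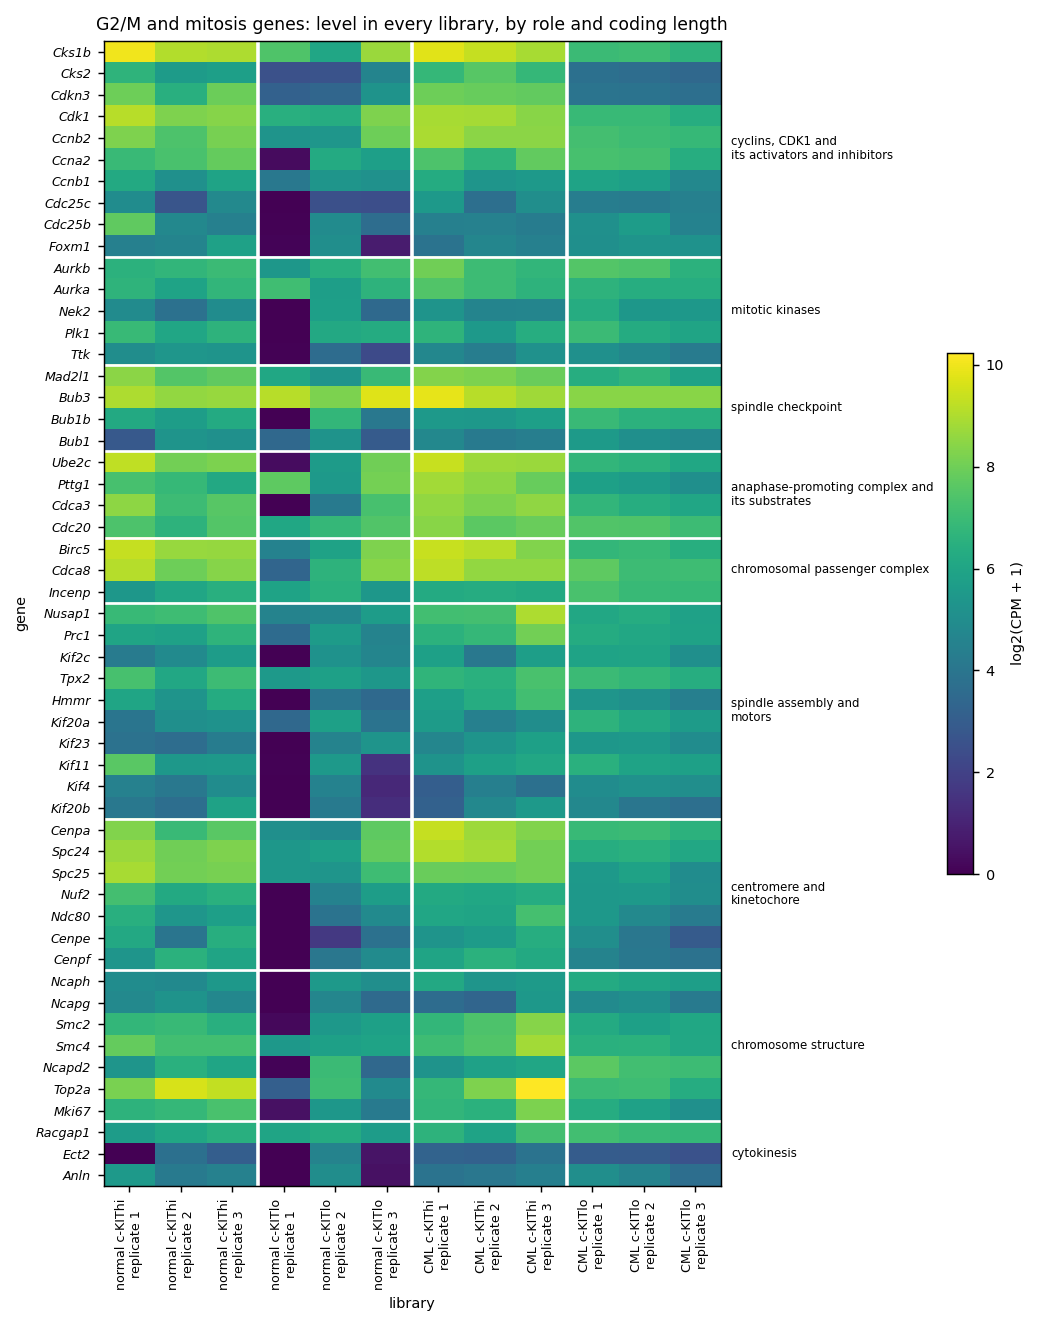
Level of each of the 53 genes, as log2(CPM + 1), in the 12 libraries, with genes grouped by role and ordered by coding length within a role; colors are to be compared along a row. Normal c-KITlo replicate 1 holds 18 genes at 0, 9 of them with 2 to 4 kb of coding sequence, and no other library holds more than 1.

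In normal LT-HSCs, 6 of the 53 genes fell in c-KITlo cells and none rose (edgeR, adjusted p under 0.05 over all 14676 genes), which is 11.3% beside 3.4% of all genes that fell, 3.1% that rose and 6.5% in either direction. The median log2 fold change was -1.53 beside 0.16 for all genes. For 25 genes (47.2%) every c-KITlo library lay below every c-KIThi library, beside 12.6% of all genes, and no gene lay above, beside 11% of all genes. Without normal c-KITlo replicate 1 none of the 53 passed the test, 43 were below 0 and the median was -1.03. Still separated downwards were 25, beside 14.5% of all genes. An unadjusted p under 0.05 by edgeR was reached by 20. No share of all genes was taken for this count, which therefore cannot be set apart from the general rate. None passed without normal c-KIThi replicate 1 or 2 either, while 12 passed without normal c-KITlo replicate 3, with Cks1b, Spc24 and Cdk1 among them. Calls over all genes moved likewise, to 23 without normal c-KITlo replicate 1, 0 without normal c-KIThi replicate 1 or 2, and 1849 (935 lower) without normal c-KITlo replicate 3. In CML LT-HSCs, 10 genes fell in c-KITlo cells and none rose, which is 18.9% beside 5.53% of all genes that fell, 2.91% that rose and 8.44% in either direction. The median was -0.71 beside 0.05 for all genes. Here 28 genes (52.8%) were separated downwards beside 23.6% of all genes, and 9 (17.0%) were separated upwards beside 27.6%; 51.2% of all genes were separated in either direction, so that a lack of overlap was common in this comparison.

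Which genes passed depended on their error as well as on their change. The standard error (SE) given here is the absolute log2 fold change divided by the square root of the F statistic of the test. It is thus not independent of the calls. In CML it had a median of 0.55 for the 10 genes called and 1.21 for the 43 others. A single fit across all 12 libraries shares the spread of normal c-KITlo cells with the CML comparison. Fitted on the CML libraries alone, 24 of the 53 genes passed, 21 lower and 3 higher (Bub1b, Incenp and Ncapd2), and 4688 of all genes passed. Fitted on the normal libraries alone, none of the 53 and none of all genes passed. Leaving out any 1 of the CML c-KITlo libraries, or CML c-KIThi replicate 2, left 0 of the 53 and at most 2 of all genes.

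Among regulators of CDK1, 4 genes fell in CML and 2 of them in normal cells. Cdkn3 encodes a phosphatase that acts on CDKs, and lies at chr14:46760541-46771669 with a coding sequence of 633 bases. It was at 250.1, 88 and 242 CPM in normal c-KIThi, 8.16, 9.38 and 37.1 CPM in normal c-KITlo, 252, 229 and 216 CPM in CML c-KIThi and 14.3, 13.8 and 12.4 CPM in CML c-KITlo libraries. No c-KITlo library reached a c-KIThi library, and the log2 fold change was -3.41 ± 0.61 (SE), adjusted p = 0.018 in normal and -4.11 ± 0.63 (SE), adjusted p = 0.0151 in CML cells, a 17.2-fold lower level.

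Cks1b and Cks2 encode small CDK-binding subunits of 237 coding bases each, at chr3:89415472-89418383 and chr13:51645232-51650660. Cks2 was at 101, 48.7 and 53.3 CPM in normal c-KIThi, 4.84, 5.23 and 23.5 CPM in normal c-KITlo, 111, 190.1 and 111 CPM in CML c-KIThi and 12.9, 11.5 and 10.1 CPM in CML c-KITlo libraries. The c-KITlo libraries were lower throughout, by -2.60 ± 0.64 (SE), adjusted p = 0.0361 in normal and -3.58 ± 0.66 (SE), adjusted p = 0.0153 in CML cells. Cks2 shares 34.7% of its transcript with near-identical processed pseudogenes and its counts are therefore uncertain. Cks1b was at 1035, 532 and 506 CPM in normal c-KIThi, 172, 66.3 and 413 CPM in normal c-KITlo, 876, 650.1 and 477 CPM in CML c-KIThi and 126, 131 and 96.5 CPM in CML c-KITlo libraries. It fell in CML cells (-2.50 ± 0.59 (SE), adjusted p = 0.026), whereas in normal cells the lower c-KITlo libraries did not pass the test (-1.67 ± 0.57 (SE), adjusted p = 0.0923).

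Cdk1, the mitotic kinase itself (chr10:69335146-69352938), was at 563, 307 and 327 CPM in normal c-KIThi, 86.9, 79.6 and 307 CPM in normal c-KITlo, 471, 459.8 and 337 CPM in CML c-KIThi and 119.8, 118 and 82.6 CPM in CML c-KITlo libraries. Its fall passed the test in CML (-1.98 ± 0.52 (SE), adjusted p = 0.0372) but not in normal cells (adjusted p = 0.119), where normal c-KITlo replicate 3 lay just below the lowest c-KIThi library. Ccnb2, which encodes a B-type cyclin, was at 304, 166 and 283 CPM in normal c-KIThi, 38.7, 40.7 and 248 CPM in normal c-KITlo, 486, 355 and 353 CPM in CML c-KIThi and 143, 130.3 and 116 CPM in CML c-KITlo libraries. CML c-KITlo libraries lay below CML c-KIThi libraries without passing the test (-1.62 ± 0.62 (SE), adjusted p = 0.117), and normal c-KITlo replicate 3 fell within the normal c-KIThi range. The other genes of this group, Ccna2, Ccnb1, Cdc25b, Cdc25c and Foxm1, had log2 fold changes of -0.62 to 0.85 in CML and -2.78 to -0.88 in normal cells, and none passed. Cdc25b and Foxm1, the transcription factor of the G2/M program, were among those separated upwards in CML c-KITlo cells. Upward separation there was less frequent among the 53 genes (17.0%) than among all genes (27.6%). Ccnb1 shares 51.9% of its transcript with processed pseudogenes.

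No mitotic kinase passed the test in either disease state. Aurka, the Aurora kinase of spindle poles, was at 100.3, 60.6 and 105 CPM in normal c-KIThi, 137, 52.3 and 96.1 CPM in normal c-KITlo, 173, 130.1 and 96.6 CPM in CML c-KIThi and 96, 81.4 and 83 CPM in CML c-KITlo libraries. Its libraries overlapped in normal cells and in CML the highest c-KITlo library lay just below the lowest c-KIThi library (-0.62 ± 0.41 (SE), adjusted p = 0.357). Plk1, the Polo kinase of mitotic entry, was at 119, 65.4 and 98.5 CPM in normal c-KIThi, 0, 71.7 and 76.7 CPM in normal c-KITlo, 99.4, 45.2 and 81.8 CPM in CML c-KIThi and 124, 78.1 and 61.6 CPM in CML c-KITlo libraries, so that normal c-KITlo replicate 1 was at 0 while the other c-KITlo libraries lay among the c-KIThi libraries. Ttk (MPS1), which starts checkpoint signaling at kinetochores, was at 31.2, 41.1 and 38 CPM in normal c-KIThi, 0.0332, 11.2 and 3.96 CPM in normal c-KITlo, 25.6, 19.4 and 35.2 CPM in CML c-KIThi and 34.5, 25.5 and 18.3 CPM in CML c-KITlo libraries. Normal c-KITlo libraries were all below normal c-KIThi libraries, without passing the test (-2.86 ± 1.16 (SE), adjusted p = 0.139), and the CML libraries overlapped (-0.04 ± 1.08 (SE), adjusted p = 0.989).

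Spindle checkpoint genes did not move as 1 group. Mad2l1, whose product binds CDC20 to inhibit the APC/C (chr6:66535390-66547220, 615 coding bases), was at 353, 178 and 212 CPM in normal c-KIThi, 67.6, 38.7 and 121 CPM in normal c-KITlo, 324, 295 and 238 CPM in CML c-KIThi and 81.1, 102 and 59 CPM in CML c-KITlo libraries. It fell in normal (-1.71 ± 0.45 (SE), adjusted p = 0.0431) and in CML c-KITlo cells (-1.83 ± 0.45 (SE), adjusted p = 0.0301), with no overlap of libraries. Bub3, an adaptor of the same checkpoint, was at 506, 379 and 406 CPM in normal c-KIThi, 559.7, 297 and 841 CPM in normal c-KITlo, 937, 557 and 439 CPM in CML c-KIThi and 337, 342 and 344 CPM in CML c-KITlo libraries. It was lower in every CML c-KITlo library without passing the test (-0.92 ± 0.42 (SE), adjusted p = 0.184) and the normal groups overlapped (0.40 ± 0.42 (SE), adjusted p = 0.608). Bub1, a checkpoint kinase, was at 6.22, 37.9 and 34.3 CPM in normal c-KIThi, 9.92, 37.6 and 6.71 CPM in normal c-KITlo, 26.6, 17.1 and 19.8 CPM in CML c-KIThi and 46.4, 33.7 and 27.4 CPM in CML c-KITlo libraries, and Bub1b (BUBR1) was at 73, 50.7 and 76 CPM in normal c-KIThi, 0, 109.5 and 16.1 CPM in normal c-KITlo, 45.8, 42.5 and 54 CPM in CML c-KIThi and 122, 93.5 and 87.8 CPM in CML c-KITlo libraries. Both were higher in every CML c-KITlo library than in every CML c-KIThi library, with log2 fold changes of 0.76 and 1.09 that did not pass the test (adjusted p = 0.574 and 0.632). Both have 2 to 4 kb of coding sequence, a class in which the CML median of all genes tested was 1.21.

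Pttg1 encodes securin, the inhibitor of separase that the APC/C destroys at anaphase, and lies at chr11:43420250-43426251 with 597 coding bases. It was at 151, 114 and 71.4 CPM in normal c-KIThi, 208, 45.5 and 271 CPM in normal c-KITlo, 453, 364 and 229 CPM in CML c-KIThi and 55.3, 47.5 and 33.4 CPM in CML c-KITlo libraries. Mean CPM was lowest in CML c-KITlo and highest in CML c-KIThi cells, whose libraries did not overlap, and it fell between them (-2.94 ± 0.59 (SE), adjusted p = 0.0165). In normal cells 2 of 3 c-KITlo libraries were above all c-KIThi libraries (0.64 ± 0.55 (SE), adjusted p = 0.513). The difference between these changes was -3.58 ± 0.80 (SE), adjusted p = 0.294, which did not pass in the main test.

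Ube2c, the E2 enzyme of the APC/C, was at 609, 263 and 299 CPM in normal c-KIThi, 0.265, 48.6 and 256 CPM in normal c-KITlo, 667, 422 and 416 CPM in CML c-KIThi and 106, 95.6 and 67.4 CPM in CML c-KITlo libraries. The c-KITlo libraries were lower throughout, and neither change passed (-1.94 ± 1.21 (SE), adjusted p = 0.345 in normal and -2.48 ± 1.24 (SE), adjusted p = 0.218 in CML). Ube2c shares 22.8% of its exonic bases with Tnnc2, and the libraries do not mark strand. Cdc20, the APC/C activator, was at 163, 98.3 and 178 CPM in normal c-KIThi, 67.2, 113 and 176 CPM in normal c-KITlo, 340.3, 199.6 and 236 CPM in CML c-KIThi and 175, 169 and 129.9 CPM in CML c-KITlo libraries. It was lower in CML c-KITlo libraries without overlap and without passing the test (-0.71 ± 0.40 (SE), adjusted p = 0.282). Cdca3, which takes part in the destruction of the mitotic inhibitor WEE1, had a log2 fold change of -2.06 in CML and -2.00 in normal cells, and did not pass.

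The chromosomal passenger complex, which corrects wrong attachments of chromosomes, had log2 fold changes of both signs in CML cells, none of which passed the main test. Birc5 (survivin) was at 646, 408 and 394 CPM in normal c-KIThi, 22.5, 57.9 and 301 CPM in normal c-KITlo, 673, 557 and 314 CPM in CML c-KIThi and 109.7, 119 and 84.1 CPM in CML c-KITlo libraries. Cdca8 (borealin) was at 543, 252 and 333 CPM in normal c-KIThi, 9.02, 98.1 and 337 CPM in normal c-KITlo, 586, 384 and 379.7 CPM in CML c-KIThi and 206, 130.1 and 133 CPM in CML c-KITlo libraries. Incenp, the scaffold of the complex, was at 42.1, 64.9 and 87.3 CPM in normal c-KIThi, 59.9, 90.2 and 41.6 CPM in normal c-KITlo, 75, 79.5 and 73.8 CPM in CML c-KIThi and 156, 119 and 115 CPM in CML c-KITlo libraries. In CML c-KITlo cells all libraries of Birc5 and Cdca8 were lower and all libraries of Incenp were higher than in CML c-KIThi cells. The log2 fold changes there were -2.30 ± 0.74 (SE), adjusted p = 0.0699 for Birc5, -1.53 ± 0.83 (SE), adjusted p = 0.262 for Cdca8 and 0.77 ± 0.39 (SE), adjusted p = 0.226 for Incenp. In the fit on CML libraries alone all 3 passed, in those directions. For all genes tested of the same coding length the main CML median was 1.21 for Incenp (2 to 4 kb). It was -0.85 for Birc5 and Cdca8 (up to 1 kb). Aurkb, the kinase of the complex, had a log2 fold change of -0.18 in CML cells.

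Of the 10 spindle proteins and motors only Nusap1, a microtubule-bundling protein (chr2:119618298-119651244), passed the test. It was at 118, 132 and 171 CPM in normal c-KIThi, 23.2, 25.6 and 49.9 CPM in normal c-KITlo, 138, 142 and 508 CPM in CML c-KIThi and 69.7, 79.2 and 56.3 CPM in CML c-KITlo libraries. Its fall had a log2 fold change of -2.10 in normal and -1.94 in CML cells, and CML c-KIThi replicate 3 was far above the other CML c-KIThi libraries. Without that library the change in CML was -1.07 and no longer passed, nor did it pass without any 1 of the normal c-KIThi libraries. Tpx2, an activator of Aurora A, was at 153, 68.6 and 129.6 CPM in normal c-KIThi, 44.5, 55 and 41.4 CPM in normal c-KITlo, 104, 90.4 and 157 CPM in CML c-KIThi and 124, 109.8 and 81.5 CPM in CML c-KITlo libraries. It was lower in all normal c-KITlo libraries (-1.32 ± 0.39 (SE), adjusted p = 0.0631) and overlapped in CML (-0.15 ± 0.39 (SE), adjusted p = 0.84). Prc1, which bundles microtubules of the central spindle, was at 61.4, 56.3 and 101 CPM in normal c-KIThi, 10.8, 48.4 and 23 CPM in normal c-KITlo, 95.8, 113 and 268 CPM in CML c-KIThi and 78.4, 69.6 and 59 CPM in CML c-KITlo libraries. It was lower without passing in both states (-1.41 ± 0.56 (SE), adjusted p = 0.133 in normal and -1.20 ± 0.56 (SE), adjusted p = 0.188 in CML). The kinesins Kif4 and Kif20a were separated upwards in CML c-KITlo cells, with log2 fold changes of 1.27 and 1.10 (adjusted p = 0.6 and 0.325), and Hmmr was separated downwards in both states. All genes tested with 2 to 4 kb of coding sequence, as these kinesins have, had a median of 1.21 in CML. Kif4 and Kif20a share 15.1% and 29.3% of their exonic bases with other genes.

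The NDC80 complex, the microtubule-binding core of the kinetochore, has 2 short subunits, Spc24 and Spc25, and 2 longer ones, Ndc80 and Nuf2. Spc25 (chr2:69193895-69206194, 678 coding bases) was at 476, 263 and 283 CPM in normal c-KIThi, 42.2, 39.4 and 132 CPM in normal c-KITlo, 236, 228 and 262 CPM in CML c-KIThi and 46, 59 and 30.4 CPM in CML c-KITlo libraries. It fell in normal (-2.26 ± 0.50 (SE), adjusted p = 0.0267) and CML c-KITlo cells (-2.42 ± 0.50 (SE), adjusted p = 0.0178). Spc24 (chr9:21755442-21760303, 603 coding bases) was at 410.1, 261 and 303 CPM in normal c-KIThi, 41.5, 53.9 and 222 CPM in normal c-KITlo, 525, 465 and 263 CPM in CML c-KIThi and 82.3, 88.3 and 69.4 CPM in CML c-KITlo libraries. It fell in CML cells (-2.38 ± 0.58 (SE), adjusted p = 0.0296), and in normal c-KITlo cells its lower libraries did not pass the test (-1.62 ± 0.57 (SE), adjusted p = 0.0977). Ndc80 (1926 coding bases) and Nuf2 (1389) were lower without overlap in both states, with log2 fold changes in CML of -1.63 and -0.90 (SE 1.24 and 1.21) that did not pass. All 4 subunits were thus lower in every c-KITlo library, and the difference between short and long subunits in these calls was not tested.

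No other kinetochore gene passed. Cenpa, the histone H3 variant of centromeres, was at 315, 121 and 196 CPM in normal c-KIThi, 33.6, 27.7 and 206 CPM in normal c-KITlo, 639, 426 and 314 CPM in CML c-KIThi and 118, 127 and 93.7 CPM in CML c-KITlo libraries. All CML c-KITlo libraries were lower without passing the test (-2.03 ± 0.69 (SE), adjusted p = 0.0821), and in normal cells the groups overlapped. Cenpf, a large protein of the outer kinetochore (8991 coding bases), was at 39.7, 92.1 and 62.8 CPM in normal c-KIThi, 0, 15.6 and 29.4 CPM in normal c-KITlo, 61.5, 92.9 and 74.3 CPM in CML c-KIThi and 23, 16.3 and 13.3 CPM in CML c-KITlo libraries. Its libraries were separated downwards in both states, and the errors were large (-2.11 ± 1.25 (SE), adjusted p = 0.314 in normal and -2.12 ± 1.25 (SE), adjusted p = 0.3 in CML).

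Of the chromosome structure genes 1 passed, which was also the only called gene with over 2 kb of coding sequence. Smc4, an ATPase of condensin (chr3:69004738-69034623, 3858 coding bases), was at 226, 138 and 141 CPM in normal c-KIThi, 43.1, 55.6 and 60.4 CPM in normal c-KITlo, 133, 175 and 450.2 CPM in CML c-KIThi and 88.9, 91.5 and 69.5 CPM in CML c-KITlo libraries. It fell by log2 fold changes of -1.67 in normal and -1.60 in CML cells (adjusted p = 0.0484 and 0.0477). CML c-KIThi replicate 3 was again far above the others, and without it the change in CML was -0.93 and no longer passed, nor did it pass without any 1 of the normal c-KIThi libraries. Its partner Smc2 was separated downwards in both states with log2 fold changes of -1.66 and -1.60 that did not pass. Ncapd2, a regulatory subunit of the same complex (4176 coding bases), was at 39.7, 88.9 and 64.6 CPM in normal c-KIThi, 0.0663, 124 and 9.98 CPM in normal c-KITlo, 37.1, 56.6 and 66.2 CPM in CML c-KIThi and 200.2, 139.9 and 129 CPM in CML c-KITlo libraries. It was higher in every CML c-KITlo than in every CML c-KIThi library, by a fitted 2.94-fold (1.55 ± 1.28 (SE), adjusted p = 0.466); this passed in the fit on CML libraries alone and in limma-voom with sample weights. Subunits of 1 complex thus lay on opposite sides in CML cells, though only the change of Smc4 passed the main test. For all genes tested the CML median was 1.21 at 2 to 4 kb of coding sequence, the class of Smc4 and Smc2. It was 0.50 at over 4 kb, the class of Ncapd2.

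Top2a, the topoisomerase that untangles sister chromatids, was at 286, 784 and 632 CPM in normal c-KIThi, 7.60, 132 and 29.1 CPM in normal c-KITlo, 113, 304 and 1206 CPM in CML c-KIThi and 124, 134 and 79.7 CPM in CML c-KITlo libraries. It was lower in all normal c-KITlo libraries (-3.34 ± 1.0 (SE), adjusted p = 0.0653); in CML, c-KIThi replicate 1 lay within the c-KITlo range (-2.26 ± 0.96 (SE), adjusted p = 0.151). Mki67, which encodes the proliferation marker Ki-67 (9531 coding bases, the longest of the 53), was at 97.4, 113 and 157 CPM in normal c-KIThi, 0.365, 41.9 and 17.1 CPM in normal c-KITlo, 107, 91.8 and 294 CPM in CML c-KIThi and 79, 57.4 and 34.3 CPM in CML c-KITlo libraries. Every c-KITlo library was below every c-KIThi library in both states, and neither change passed (-2.63 ± 1.03 (SE), adjusted p = 0.13 in normal and -1.53 ± 0.99 (SE), adjusted p = 0.348 in CML).

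Cytokinesis genes did not pass in either state. Racgap1, a component of centralspindlin, was at 49, 66.9 and 87.1 CPM in normal c-KIThi, 62.3, 77.3 and 49 CPM in normal c-KITlo, 96, 61.1 and 144 CPM in CML c-KIThi and 142, 121 and 112 CPM in CML c-KITlo libraries. Anln (anillin) was at 44.1, 17.1 and 21.5 CPM in normal c-KIThi, 0, 31.7 and 0.384 CPM in normal c-KITlo, 14.1, 15.4 and 20.5 CPM in CML c-KIThi and 32.3, 22.7 and 12 CPM in CML c-KITlo libraries. Ect2, the exchange factor that activates RhoA at the cleavage site, was at 0, 12.9 and 7.39 CPM in normal c-KIThi, 0, 23.1 and 0.448 CPM in normal c-KITlo, 8.60, 8.05 and 13.8 CPM in CML c-KIThi and 6.90, 6.72 and 5.03 CPM in CML c-KITlo libraries. Normal c-KITlo replicate 2 was at the top of its group for all 3, and normal c-KITlo replicates 1 and 3 were near 0 for Anln and Ect2.

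**Figure D2:**
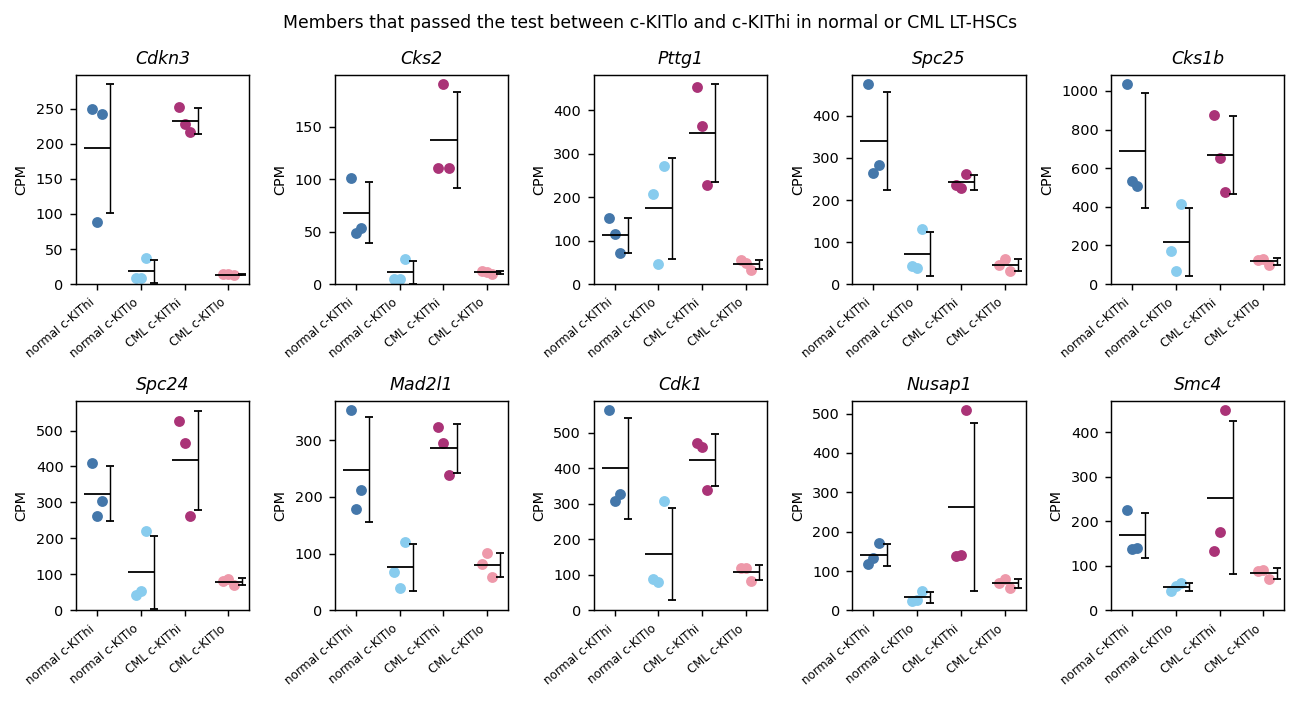
CPM in each library (points), with the mean (horizontal line) and SD (bar, n = 3), for the 10 genes that fell in CML c-KITlo cells, 6 of which also fell in normal c-KITlo cells. In CML all c-KITlo points lie below all c-KIThi points for the 10 genes, whereas for Pttg1 in normal cells 2 of 3 c-KITlo points lie above all c-KIThi points.

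Short and long genes were then compared. The first measure, union exonic length, split the 53 at a median of 4919 bases and showed no lower median in the shorter genes: in CML the median log2 fold change was -0.49 in the shorter 28 genes and -1.20 in the longer 25, and in normal cells -1.26 and -1.61. Union exonic length is large for several genes with short coding sequences (Mad2l1 8390 bases, Cdk1 4934 bases), so coding length was added after the data were seen. By coding length, 14 genes had up to 1 kb, 15 had 1 to 2 kb, 18 had 2 to 4 kb and 6 had over 4 kb.

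In CML c-KITlo versus c-KIThi cells, all 14 genes with up to 1 kb were below 0, 8 fell, and their median was -2.34. Medians were -0.62 for 1 to 2 kb, 0.32 for 2 to 4 kb and -1.58 for over 4 kb, with 1, 1 and 0 genes that fell. All genes tested shifted with length in the same comparison, with medians of -0.85, 0.52, 1.21 and 0.50, and 14.5% of those up to 1 kb fell beside 0.745% of those from 2 to 4 kb. Set against genes of the same length class, the members lay lower in each class, by -1.49, -1.14, -0.89 and -2.08. Spearman's rho of the change with coding length was 0.53 over the 53 genes and 0.44 over the 12470 genes with a coding length, as a description across genes of the same libraries. By exonic length rho was 0.23 over the 53 genes and 0.41 over all genes, and by longest transcript 0.25 and 0.44, so that the members followed length less than all genes did on both of these measures.

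In normal cells the medians did not rise with length in this way, and the difference between the states in this respect was not tested. Medians over the 4 classes were -1.69, -1.20, -1.33 and -2.41, beside 0.02, 0.59, 0.35 and -0.24 for all genes, and rho was -0.07. The members lay below all genes of their class by -1.71, -1.79, -1.68 and -2.17. The error also rose with length: the median SE in CML was 0.61 for up to 1 kb, 0.62 for 1 to 2 kb, 1.26 for 2 to 4 kb and 1.27 for over 4 kb. Of the 18 genes at 0 in normal c-KITlo replicate 1, 1 had up to 1 kb, 5 had 1 to 2 kb, 9 had 2 to 4 kb and 3 had over 4 kb.

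**Figure D3:**
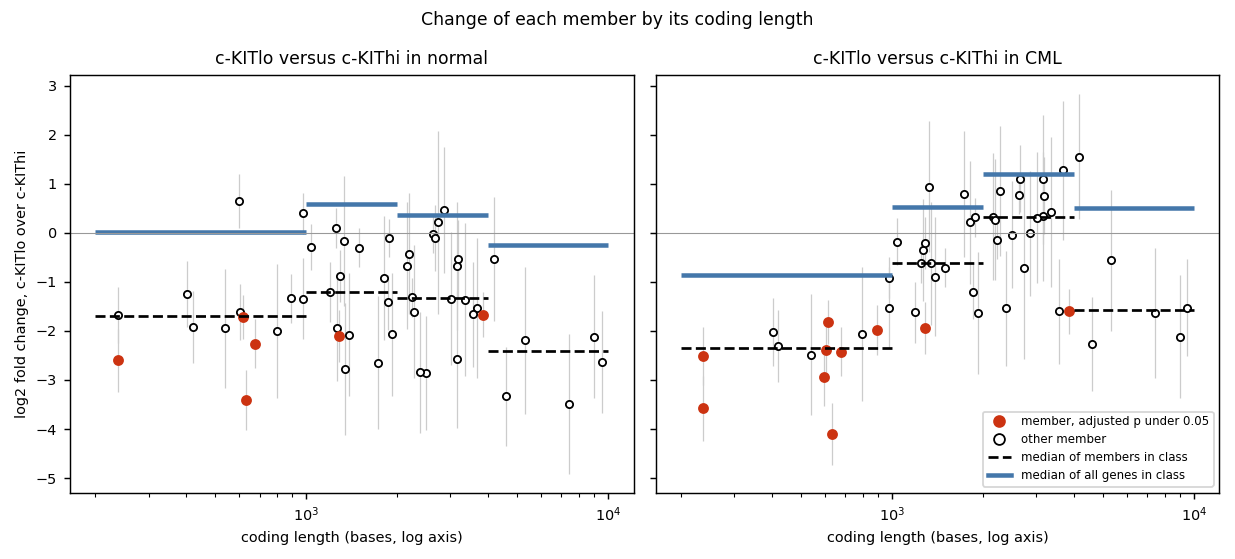
Log2 fold change of c-KITlo over c-KIThi for the 53 genes (points, with SE) against coding length on a log axis, in normal (left) and CML cells (right); dashed lines are medians of the members and blue lines medians of all genes in 4 length classes. In CML the median of the members goes from -2.34 up to 1 kb to 0.32 at 2 to 4 kb, and it lies below that of all genes in every class of both panels.

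The same held library by library. The mean log2(CPM + 1) of the 27 genes with the shorter coding sequences exceeded that of the 26 longer ones by 2.50, 1.94 and 1.29 in CML c-KIThi libraries but by 0.52, 0.72 and 0.72 in CML c-KITlo libraries, without overlap. It was 2.32, 1.29 and 1.35 in normal c-KIThi and 2.52, 0.28 and 2.92 in normal c-KITlo libraries, which overlapped. The share of counts on short genes did not follow this gap in every library. Genes under 1000 bases of exonic length took 7.04% to 12.8% of counts in CML c-KIThi and 1.87% to 2.91% in CML c-KITlo libraries, and 11.5% to 13.8% in normal c-KIThi and 1.40% to 5.46% in normal c-KITlo libraries, of which replicates 1 and 3 had a wider gap than any normal c-KIThi library. With offsets that take out the trend on exonic length in each library, 9 of the 53 genes fell in CML, 7 of them among the 10, with a median of -1.36, beside 358 of all genes that fell, 17 that rose and a median of -0.15. In normal cells 4 fell, with a median of -1.41, beside 345 of all genes that fell, 451 that rose and a median of 0.44. The same correction on coding length was not tested.

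**Figure D4:**
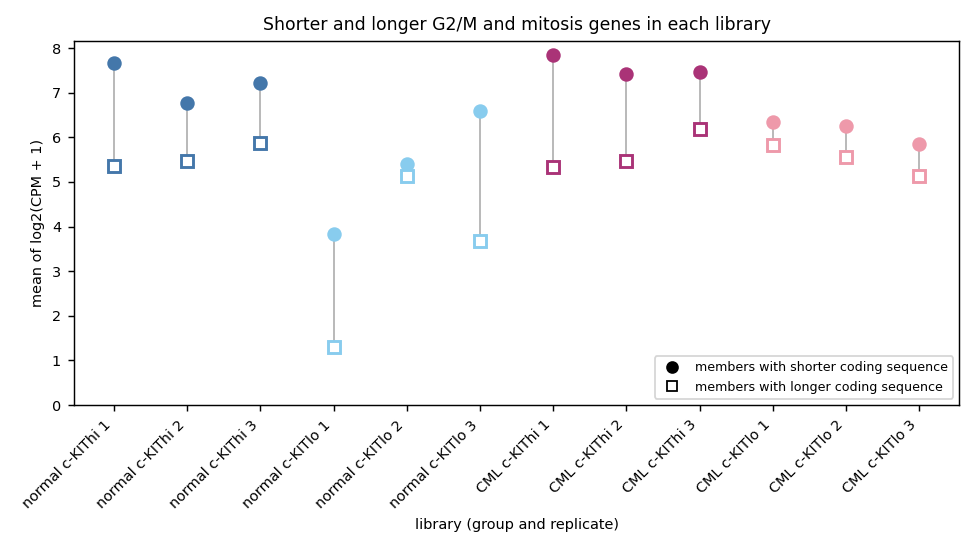
Mean log2(CPM + 1) of the 27 members with shorter (filled circles) and the 26 with longer coding sequences (open squares) in each of the 12 libraries. The gap between the symbols is 0.52 to 0.72 in CML c-KITlo and 1.29 to 2.50 in CML c-KIThi libraries.

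CML and normal c-KITlo cells were compared directly. None of the 53 genes passed the test, beside 0.0954% of all genes, 0.0681% higher and 0.0273% lower. DESeq2 called 1 of the 53, Pttg1, beside 499 of all genes. At an unadjusted p under 0.05 by edgeR there were 5, 4 higher and 1 lower. No share of all genes was taken, so these counts cannot be set apart from the general rate. The log2 fold change was above 0 for 42 genes with a median of 0.99 beside -0.13 for all genes. That median was 0.48 without normal c-KITlo replicate 1, 0.42 with exonic length offsets and 2.23 with sample weights. In all, 16 genes (30.2%) were higher in every CML c-KITlo than in every normal c-KITlo library beside 12.3% of all genes. None was lower in every library, beside 7.84%, and 20.1% of all genes were separated in either direction. The largest log2 fold changes among the 16, named after their values were seen, were 2.65 for Cdc25c, 2.37 for Ttk, 2.11 for Kif11 and 2.06 for Kif4 (adjusted p = 0.399, 0.38, 0.547 and 0.581), all of which were at 0 or 1 count in normal c-KITlo replicate 1. Pttg1 had the smallest p and was lower in CML (-1.95 ± 0.57 (SE), adjusted p = 0.221). By coding length, medians were -0.35, 0.99, 1.22 and 1.52 from the shortest to the longest class, beside -0.72, -0.04, 0.59 and 0.38 for all genes.

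In c-KIThi cells none of the 53 genes passed between CML and normal, beside 0.0204% of all genes, and the median was 0.25 beside 0.03. At an unadjusted p under 0.05 by edgeR there was 1, Pttg1, with no share of all genes taken, so that nothing is drawn from it. Single changes ran from -2.09 to 1.63 with a median SE of 0.97, so the lack of calls is no measure of likeness. Only 6 genes had libraries that did not overlap, 5 higher (9.43%, beside 7.97% of all genes) and 1 lower (1.89%, beside 6.36%), beside 14.3% in either direction. The higher ones were Ccnb2, Cks2, Cdc20, Pttg1 and Kif23 and the lower one was Spc25. No gene of the 53, and none of all genes, passed the test of the difference between the c-KITlo versus c-KIThi changes in CML and normal cells (0%, also in each direction). DESeq2 called 1 of the 53 beside 225 of all genes. At an unadjusted p under 0.05 by edgeR there were 2 of the 53, Pttg1 and Bub3, again with no share of all genes taken, so that nothing is drawn from them.

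Over the 4 groups, the mean CPM was highest in CML c-KIThi cells for 28 genes, in normal c-KIThi cells for 14, in CML c-KITlo cells for 11 and in normal c-KITlo cells for none. It was lowest in normal c-KITlo cells for 41 genes. Replicate 1 of that group held 18 of the 53 genes at 0, which lowers their means. No share of all genes was taken for these counts by group, so they cannot be set apart from the general rate. The median CV of the 53 genes was 22.2% in CML c-KITlo, 32.4% in CML c-KIThi, 35.6% in normal c-KIThi and 95.3% in normal c-KITlo cells, beside 21%, 52.6%, 52.8% and 83.1% for all genes tested (n = 3 libraries each).

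Further genes of the pathway were taken from 5 lists, whose counts stand beside 3.4% of all genes that fell and 3.1% that rose in normal c-KITlo cells, and 5.53% and 2.91% in CML c-KITlo cells. Counts of 1 to 3 in the 4 shorter lists are too few to set apart from these shares. Of 74 other mitosis genes, 6 fell and none rose in normal c-KITlo cells (median log2 fold change -1.18) and 6 fell and 1 rose in CML c-KITlo cells (median -0.34). They included the short kinetochore genes Cenpw, with a log2 fold change of -4.42 in normal and -3.83 in CML cells (SE 0.71 and 0.69, adjusted p = 0.0144 and 0.0151), and Cenph, with -3.79 and -2.50 (SE 0.50 and 0.47, adjusted p = 0.0142 and 0.0153). Of 17 APC/C subunits and regulators, 1 fell in normal and 3 fell and 2 rose in CML c-KITlo cells, with Anapc13 at -4.61 and -5.23 and Anapc2 at 1.93 in CML. Cohesin, which holds sister chromatids together, had 1 of 10 genes lower in normal cells (Nipbl, the loader, -3.62) and none in CML. Of 12 tested genes of the DREAM and MMB complexes, 1 rose in each state: Rbl2 (p130), a pocket protein of resting cells, at 3.27 in normal, and E2f4 at 2.76 in CML cells. Of 21 genes of G2/M entry control, 2 fell and 1 rose in normal (Arpp19, an inhibitor of PP2A, -3.73, and Plk2, 3.91) and 3 fell in CML cells (Arpp19 -3.97 and Mnat1 -2.36 among them). Btg2, an antiproliferative gene of this list, was the 1 gene of the lists that passed between CML and normal c-KITlo cells, at 5.12 (SE 0.78, adjusted p = 0.0413). Its mean was 5.55 CPM in normal and 192 CPM in CML c-KITlo cells. In c-KIThi cells it was likewise higher in CML, at 231 CPM beside 14.3 CPM in normal, without passing the test. These lists were not searched for near-identical copies of their genes.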

How the data were processed

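Per the study's methods and the labels, RNA of sorted LT-HSCs was amplified from poly(A) with SMARTer v4, made into Nextera XT libraries, which do not mark strand, and sequenced on an Illumina HiSeq; the authors aligned reads to GRCm38 with STAR 2.5.3a and counted them per Gencode M11 gene with HTSeq 0.9.1, and these raw counts were deposited. The submitters' notes also name DRAGEN and DESeq2 1.22.2. Reads that aligned to more than 1 place were 61.8% to 66.5% of normal c-KIThi, 34.3% to 52.3% of normal c-KITlo, 58.9% to 66.9% of CML c-KIThi and 38.0% to 39.4% of CML c-KITlo reads and are not in gene counts. The 5 HTSeq classes outside genes were left out.

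Symbols and lengths came from Gencode M21 (GRCm38); 48435 of 48795 gene IDs matched. Counts were filtered with filterByExpr, normalized by TMM and fitted over all 12 libraries with edgeR 4.0.16 quasi-likelihood (R 4.3.3), 1 term per group, with Benjamini-Hochberg adjustment over 14676 genes at a threshold of 0.05; all adjusted p-values of the report are from this fit unless another tool is named, and fold changes of genes with a group near 0 depend on the prior count. The test was also run on simulated counts with large planted changes and the same spread in every group. The real groups differed in spread, so that run cannot show how the test behaves on them. Alternatives were DESeq2 1.42.0, limma 3.58.1 (voom with sample weights), RLE factors, no filter, only the groups compared, thinned libraries, exonic length offsets, a replicate block, each library left out, and other length splits. The coding length split and the separation without normal c-KITlo replicate 1 were added after seeing the data. Limits for a count of 0 rest on 3 counts and cover counting error only. Near-identical copies were sought at 97% identity. By rule, values by library were given for up to 3 genes of each role with the smallest p in either c-KITlo versus c-KIThi comparison and for the 3 shortest and 3 longest members by exonic length, and full statistics for called members, at most 8 a comparison; of the other lists, up to 2 called genes per comparison were named. Statistics beside genes that did not pass, and further genes given by name (such as Bub1b, Ncapd2, Kif4 and Kif20a), go beyond that rule and were chosen after their values were seen. The members and lists were chosen with earlier results of these data known.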

Additional observations from a re-analysis of the deposited data

How the results depend on the processing

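In normal cells 6 members were called by edgeR, 15 by DESeq2, 15 without the filter on low counts, 0 with limma-voom sample weights and 0 with only the compared groups fitted. Leaving out 1 library gave 0 to 12 (0 without normal c-KIThi replicate 1 or 2 or normal c-KITlo replicate 1, 1 without normal c-KIThi replicate 3 or CML c-KITlo replicate 1 or 2, 2 without CML c-KIThi replicate 2 or CML c-KITlo replicate 3, 12 without normal c-KITlo replicate 3). Over all genes, the fits with 1 member gave 205, 210 and 206 calls in the order named, and those with 2 gave 502 and 316. In CML 10 were called, 26 with sample weights and 24 with only the compared groups. Leaving out 1 library gave 0 to 14 (0 without CML c-KIThi replicate 2 or any CML c-KITlo library, 6 without CML c-KIThi replicate 1 or 3 or normal c-KIThi replicate 2). Over all genes, the fits with 6 members gave 690, 569 and 693 calls in the order named. The 14 came without normal c-KITlo replicate 1, beside 1859 of all genes. RLE factors and thinned libraries gave 6 and 10 and the same genes; RLE moved the median of all genes in normal cells from 0.16 to 0.02. With the replicate block 1 member was called in normal cells (Cdkn3) and 4 in CML (Cdkn3, Cks2, Pttg1 and Spc25); the same replicate numbers correlated at -0.136 to 0.0961, so the numbers were not taken as pairs. Over all genes, 954 and 1238 calls became 2672 and 3146 by DESeq2, 1474 and 1717 without the filter, 2 and 6282 with sample weights, 0 and 4688 with only the compared groups, and 199 and 430 with the replicate block. Between CML and normal c-KITlo cells 0 members became 1 by DESeq2 and 0 to 5 without 1 library (5 without normal c-KITlo replicate 2). Over all genes, 14 calls became 499 by DESeq2 and 910 without normal c-KITlo replicate 2. Between c-KIThi cells 0 members became 1 with sample weights, while 3 calls over all genes became 81. For the difference of changes, DESeq2 and no filter gave 1 each, beside 225 and 137 of all genes. Leaving out 1 library gave 0 to 4, with 4 beside 416 of all genes without normal c-KITlo replicate 2.

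The gap between shorter and longer members in mean log2(CPM + 1) was averaged over the libraries of a group and compared between groups. This is not the median fold change, which by exonic length in CML was lower in the longer members (-1.20) than in the shorter (-0.49). From c-KIThi to c-KITlo cells in CML, the gap by exonic length changed by -0.12. By coding length it changed by -1.26, and between fixed limits of 2 kb and 4 kb by -1.79. Without 1 library the change by exonic length was -0.36 to 0.19, the latter without CML c-KIThi replicate 1. In normal cells the mean gap by exonic length was wider in c-KITlo (0.83) than in c-KIThi libraries (0.35). Without 1 library that change was 0.29 to 0.84. Single libraries overlapped, at 0.11 to 1.21 in normal c-KITlo and 0.23 to 0.53 in normal c-KIThi cells. By coding length the normal means were 1.91 in c-KITlo and 1.65 in c-KIThi libraries. Between CML and normal c-KITlo cells the change of the gap was -0.54 by exonic length, -1.26 by coding length and -1.94 between fixed limits. Between c-KIThi cells it was 0.06, 0.66 between fixed limits and -0.25 to 0.30 without 1 library, with -0.25 without CML c-KIThi replicate 1 and a value just below 0 without normal c-KIThi replicate 2. The causes were not tested.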
